A study of Mus musculus with 12 samples.

Results

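The livers of male mice lacking the nucleoside transporter ENT3 were compared with those of male wild-type mice. The comparison holds 6 of the 12 arrays of the study: the 3 knockout (KO) mice 18, 19 and 39 and the 3 wild-type (WT) mice 17, 23 and 33, chosen as the arrays whose titles end in the letter M. KO mice carry the genotype ENT3 -/- and WT mice ENT3 +/+, both are of the C57BL6/J strain, and both were killed at 12 weeks with no other treatment named. Liver tissue was snap frozen, and each array holds RNA of 1 numbered mouse. The labels do not say how the allele was made, whether controls were littermates or at what hour the animals were killed. The letter M was read as male, and all 6 arrays fitted that reading: Xist lay at 4.18 to 4.45, against 10.28 to 12.39 on the 6 arrays titled F, and the Y-linked Uty lay at 6.24 to 6.66, against 4.14 to 4.33. Genes on autosomes are described, 28658 with a symbol of their own, 18364 of them protein-coding.

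ENT3 is the product of Slc29a3 and belongs to the equilibrative nucleoside transporters, which let nucleosides cross membranes down their gradient. It sits mainly in lysosomes, where the breakdown of engulfed DNA and RNA frees nucleosides, and it has also been placed in mitochondria. In people, loss of SLC29A3 causes a group of histiocytoses, disorders in which macrophages accumulate. The liver holds the largest pool of resident macrophages in the body, the Kupffer cells, beside hepatocytes that carry out fatty acid oxidation, bile acid synthesis and detoxification.

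All values are log2 signals as deposited, and a difference is KO minus WT in log2 units with the standard error (SE) of a limma fit. Values are listed in the order WT 17, 23 and 33, then KO 18, 19 and 39. A gene is called, or is said to have risen or fallen, where its adjusted p (Benjamini-Hochberg over 65956 features) was under 0.05. The SE and p-values rest on the spread within the male and the female groups, because the female arrays were part of the fit. They are therefore not a measure of the spread between these male mice alone. A comparison of 3 against 3 mice cannot give a permutation p below 0.1 for any single value. In bulk liver tissue, fewer cells of a type and less RNA per cell cannot be told apart.

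The arrays of a genotype correlated at 0.989 to 0.994 across features and those of different genotypes at 0.981 to 0.988. The hepatocyte markers Alb, Ttr and Apoa1 lay at 19.93 on all 6 arrays, the highest value the table holds, and Hnf4a at 11.77 to 12.91. That ceiling was reached on all 6 arrays by 202 features, and another 204 features had a highest value of their own that 3 or more of the 6 arrays shared, so such genes could not show a difference upward. Several control features differed with genotype. The poly-A spikes, tailed bacterial RNAs mixed into each sample ahead of labelling, averaged 6.46, 6.81 and 6.40 in WT and 5.67, 6.06 and 5.29 in KO arrays, a difference of -0.88 (exact permutation p = 0.1, the smallest possible). Hybridisation spikes differed by -0.28, the median of the negative controls by 0.09 and their 95th percentile by 0.25 (exact permutation p = 0.1 for each). That percentile, used below as a floor, averaged 6.35 in WT and 6.6 in KO arrays, so KO values met a higher floor. The part of these control differences in the gene results was not tested apart from 1 fit with the poly-A level as a covariate, in which none of 65956 features was called by limma and 5125 had an unadjusted p under 0.05, against 8452 without it. The 485 genes called without the covariate all kept their sign, with a median ratio of the differences with and without it of 0.98 for the 266 protein-coding genes and 0.55 for 170 small nuclear RNA genes. The SE grew by a median of 1.91 times over the 485. The lowest WT poly-A level, 6.40, lay above the highest KO level, 6.06, so in these 6 arrays that level and genotype cannot be told apart.

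The targeted gene was examined first. Slc29a3 lay at 4.91, 5.20 and 4.82 in WT and at 4.19, 4.10 and 4.16 in KO livers. The groups did not overlap, and the difference was -0.83 ± 0.10 (limma adjusted p = 0.00847). All 6 values lay below the 95th percentile of the negative controls, 6.30 to 6.74, so the size is not exact. It was called in each of the 6 fits that left out 1 male mouse.

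Over all features, 716 of 65956 were called, 1.09%, with 382 higher and 334 lower in KO. That split depended on the scaling: it was 446 higher and 643 lower after quantile normalization and 439 higher and 493 lower with each array centred on its median. By gene, 485 of 28658 autosomal genes were called, 1.69%, of which 207 were higher, 0.722%, and 278 lower, 0.97%. In all 485 the 3 KO values lay apart from the 3 WT values, as they did upward in 3122 genes, 10.9%, and downward in 3192, 11.1%, of all autosomal genes. The median difference over all autosomal genes was 0.01. The negative controls set a floor that most genes lay under: 7085 genes exceeded their 95th percentile on at least 3 of 12 arrays, and these had a median difference of -0.08. When only features past that floor were tested, 404 of the 7085 genes were called higher, 5.7%, and 703 lower, 9.92%. In the account of gene groups below, that fit is called the restricted fit. A gene could enter it through 1 genotype alone: 44 of the 404 and 175 of the 703 exceeded the floor on fewer than 3 of the 6 arrays of the genotype in which they were lower. Restricted p-values are therefore printed only for genes that exceeded it on at least 3 arrays of each genotype.

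The calls of the 2 directions were made of different kinds of gene. Of the 207 genes called higher, 172 were small nuclear or nucleolar RNA genes, 20 were protein-coding and 15 were of other kinds. Of the 278 called lower, 246 were protein-coding and none was a small nuclear or nucleolar RNA gene. Gene kinds were set apart after their values were seen.

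Small nuclear RNAs (snRNAs) are the RNA cores of the spliceosome, transcribed in the nucleus without a poly-A tail. Of 836 autosomal snRNA genes, 170 were called higher (20.3%) and none lower, and in 472 (56.5%) every KO liver lay above every WT liver. Their median difference was 0.49, and 1.76 over the 349 above the negative controls. The median signal of those 349 was 12.47, 12.84 and 13.12 in WT and 14.93, 14.45 and 15.51 in KO livers. The lowest KO male array, mouse 19, thus stood above the highest WT male array, mouse 33. On the WT arrays titled F, however, the same median was 15.1, 14.29 and 13.62, which overlaps the range of the KO males. The KO arrays titled F lay at 16.14, 16.6 and 16.01. The guide RNAs of the nucleolus (snoRNAs), which direct chemical modification of ribosomal RNA, did not show the same separation: their medians were 8.96, 9.48 and 9.78 in WT and 9.75, 9.24 and 10.42 in KO livers, and 2 of 914 were called. Protein-coding genes above the negative controls had medians of 7.97, 8.02 and 8.0 in WT and 7.86, 7.98 and 7.78 in KO livers, a median difference of -0.15. The snRNA genes exist as many near-identical copies and pseudogenes whose sequences are shared, so single copies are uncertain. The 170 called entries held 113 distinct sets of values, and 45 entries were identical on all 12 arrays. The poly-A spikes, which carry tails, differed by -0.88 on the same arrays, and the part of labelling in the snRNA result was not tested beyond the covariate fit, in which the snRNA median was 0.28 against 0.49, the called snRNA genes kept their sign and none was called. The count was 81, 69, 110, 72 and 88 without WT 17, WT 23, WT 33, KO 18 and KO 39, 183 without KO 19, and 12 in a fit of the 6 male arrays alone, while the median stayed at 0.42 to 0.58.

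**Figure D1:**
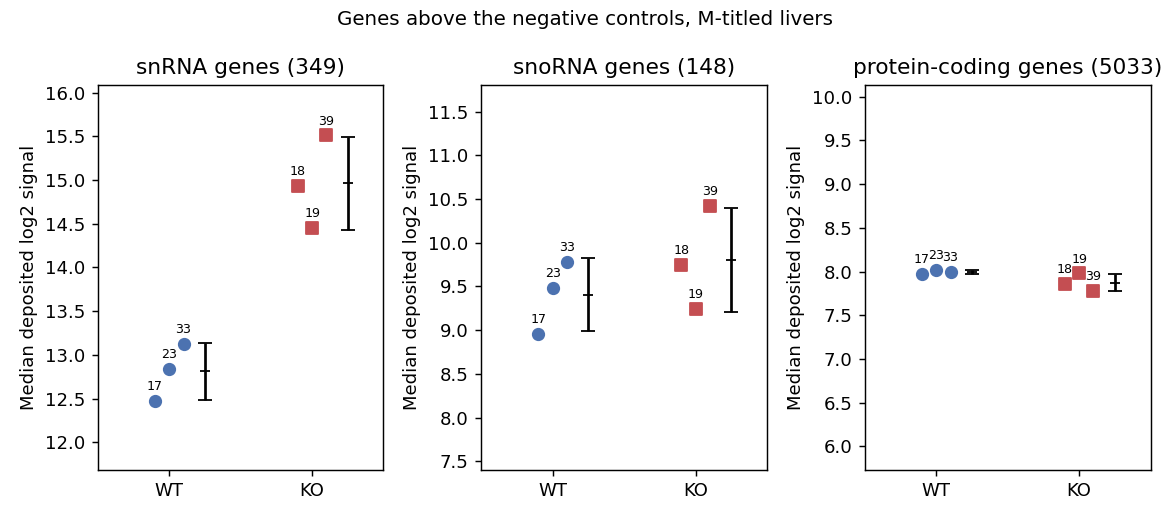
Median deposited log2 signal of genes above the negative controls on each of the 6 male arrays, for 349 snRNA, 148 snoRNA and 5033 protein-coding genes; numbers are mouse numbers, and bars are the mean ± SD of 3 mice. Each panel spans the same number of log2 units. The snRNA medians of the KO mice, 14.45 to 15.51, all lie above those of the WT mice, 12.47 to 13.12.

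Among longer transcripts of the nucleus, Malat1, a long noncoding RNA of nuclear speckles, lay at 12.64, 11.85 and 12.81 in WT and 15.28, 14.17 and 15.06 in KO livers, a rise of 2.41 ± 0.39 (limma adjusted p = 0.0242). It was not called without WT 17, WT 23, WT 33, KO 18 or KO 39 (adjusted p up to 0.0971), and its difference was 0.96 with the poly-A covariate, where those of the next 3 genes were 1.77, 0.96 and 1.0. Genes of 3 splicing proteins were also called higher. Srsf5, a serine-arginine splicing factor, rose by 1.31 ± 0.20, Son, a scaffold of nuclear speckles, by 0.79 ± 0.11, and Rbm39, a spliceosome cofactor, by 0.68 ± 0.11 (limma adjusted p = 0.0196, 0.0141 and 0.0266). Son lay within 6.50 to 6.59 in WT and 7.15 to 7.44 in KO livers, with little spread inside either genotype. Srsf5 lost its call without WT 23 or WT 33, Son without WT 23, WT 33 or KO 18, and Rbm39 without WT 17, WT 23, WT 33 or KO 18 (adjusted p up to 0.102).

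The largest rises among protein-coding genes were those of Fcgr4, Itgb2, Vcam1, Cd207 and Spic, all known from myeloid cells or from their adhesion to vessel walls. Fcgr4, an activating Fc receptor for IgG on macrophages, monocytes and neutrophils, lay at 6.20, 5.50 and 5.40 in WT and 12.70, 10.09 and 9.22 in KO livers. Every KO value exceeded every WT value by more than 3 log2 units, with mouse 18 highest, and the difference was 4.97 ± 0.84 (limma adjusted p = 0.0279). Itgb2, the beta 2 integrin chain that leukocytes use to adhere and migrate, lay at 5.91, 5.30 and 5.38 in WT and 10.33, 8.84 and 7.37 in KO livers, a rise of 3.31 ± 0.64 (limma adjusted p = 0.043). Vcam1, the endothelial and macrophage ligand of leukocyte integrins, lay at 7.26, 6.21 and 6.65 in WT and 9.63, 10.18 and 9.27 in KO livers, a rise of 2.99 ± 0.58 (limma adjusted p = 0.0456). The WT values of Fcgr4 and Itgb2 did not exceed the 95th percentile of the negative controls, so these sizes are not exact. Fcgr4 lost its call without WT 17, WT 23, WT 33 or KO 18 (adjusted p up to 0.105), Itgb2 without those or KO 19 (up to 0.157), and Vcam1 without any one of the 6 mice (up to 0.172).

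Cd207 and Spic have more particular roles. Cd207 encodes langerin, a lectin of Langerhans cells and of some tissue dendritic cells. Its signal was 5.48, 5.52 and 5.55 in WT and 8.58, 8.07 and 8.31 in KO livers, with little spread inside either group. The rise of 2.81 ± 0.32 (limma adjusted p = 0.00847) was kept without any one mouse (adjusted p up to 0.0448) and in the fit of the 6 male arrays alone (0.0294), in which 4 of 53 called named genes kept their call. Spic, the transcription factor of iron-recycling macrophages, lay at 4.10, 4.02 and 3.86 in WT and 7.50, 5.79 and 5.94 in KO livers, a rise of 2.42 ± 0.42 (limma adjusted p = 0.0296) that was lost without WT 17, WT 23 or WT 33 (up to 0.106). Also called higher were Atp2b1, a calcium pump of the plasma membrane (0.82 ± 0.16), Clec4a2, an inhibitory lectin of myeloid cells (1.59 ± 0.28), Pip4k2a, a phosphoinositide kinase (2.08 ± 0.41), Snx10, a sorting nexin of endosomes (1.27 ± 0.21), and Nampt, the rate-limiting enzyme of NAD salvage (1.58 ± 0.27). Limma adjusted p of these 5 ran from 0.027 to 0.0477. Each lost its call without WT 17, WT 23, WT 33 or KO 18, Clec4a2 also without KO 39, and Pip4k2a and Atp2b1 also without KO 19 (up to 0.16). The WT values of Cd207, Spic, Pip4k2a and Clec4a2 did not exceed the 95th percentile of the negative controls. Nor did 2 of the 3 KO values of Spic or any of Clec4a2, so these sizes are not exact.

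The promoters of 3 of these genes are shown because PU.1, the master transcription factor of macrophages, and its relative encoded by Spic bind a purine-rich core. RefSeq sequences on GRCm38.p6, 300 bases each and mostly upstream of the gene's start, are written 5′ to 3′ on the gene's strand, with the core GAGGAA, read on either strand, in capitals. Fcgr4 spans chr1:171018676-171018975 on the plus strand, Cd207 chr6:83677808-83678107 on the minus strand and Spic chr10:88682974-88683273 on the minus strand.
Fcgr4: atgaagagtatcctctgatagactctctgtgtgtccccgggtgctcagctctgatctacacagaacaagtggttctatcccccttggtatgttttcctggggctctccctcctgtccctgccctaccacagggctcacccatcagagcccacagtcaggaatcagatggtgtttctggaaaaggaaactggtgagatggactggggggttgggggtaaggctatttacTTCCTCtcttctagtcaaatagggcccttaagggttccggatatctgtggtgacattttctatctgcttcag
Cd207: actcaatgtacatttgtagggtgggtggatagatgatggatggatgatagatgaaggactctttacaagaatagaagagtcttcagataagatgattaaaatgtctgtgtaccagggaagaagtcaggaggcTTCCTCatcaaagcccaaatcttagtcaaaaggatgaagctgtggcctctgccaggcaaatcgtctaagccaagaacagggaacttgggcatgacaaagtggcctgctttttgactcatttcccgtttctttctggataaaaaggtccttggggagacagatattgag
Spic: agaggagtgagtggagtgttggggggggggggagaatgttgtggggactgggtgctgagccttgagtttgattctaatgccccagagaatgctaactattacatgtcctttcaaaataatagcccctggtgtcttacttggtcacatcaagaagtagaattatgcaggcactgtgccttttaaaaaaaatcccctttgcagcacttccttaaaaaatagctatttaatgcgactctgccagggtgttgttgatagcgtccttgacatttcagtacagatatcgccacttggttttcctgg
The core was found 1 time each in the promoters of Fcgr4 and Cd207 and not in that of Spic. It is common: 4756 of 17440 promoters of autosomal genes in the table hold it (27.3%), as do 7 of 21 of genes called higher (33.3%) and 42 of 217 of genes called lower (19.4%). A match is a description of these letters only.

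**Figure D2:**
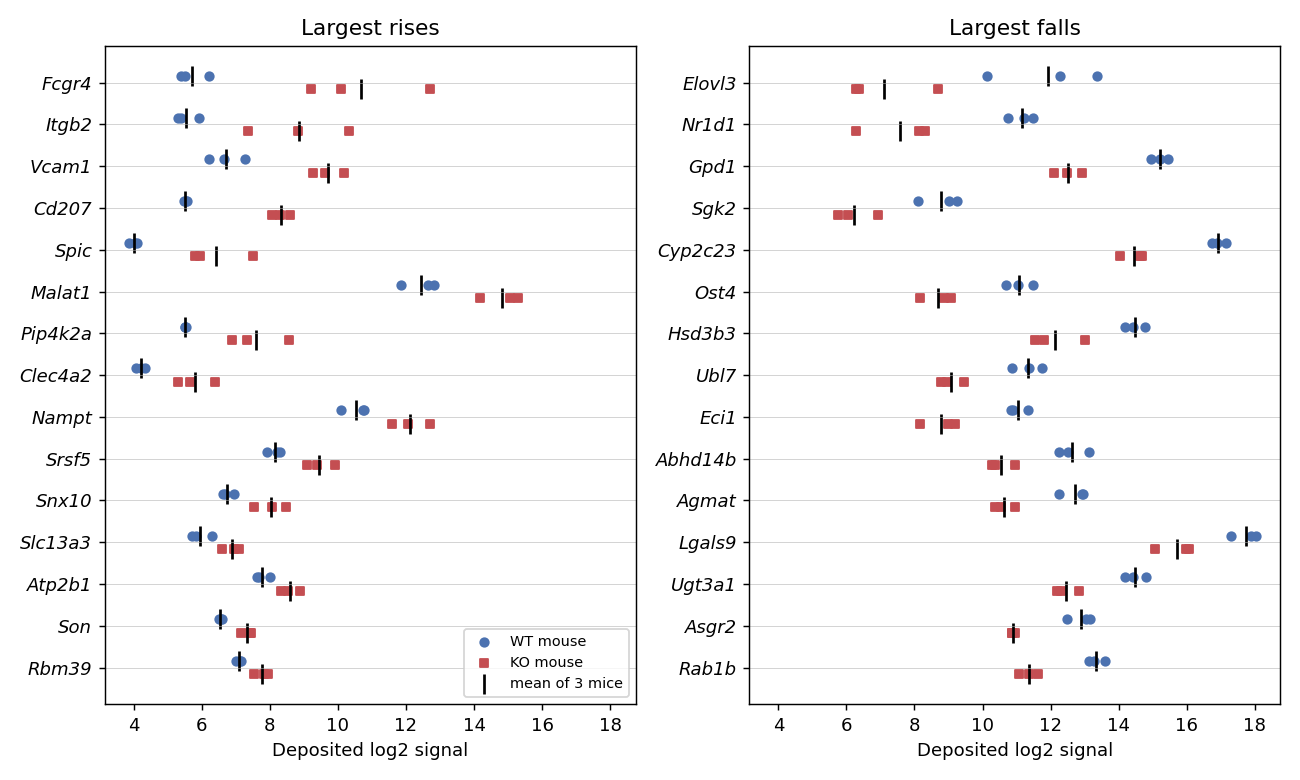
Deposited log2 signal in each of the 6 male livers for the 15 largest rises (left) and the 15 largest falls (right) among called genes, small RNA and predicted genes left out. Circles are WT mice, squares KO mice and vertical ticks the mean of 3 mice. In all 30 genes the KO and WT values do not overlap. Fcgr4 has the largest rise, 4.97, and Elovl3 the largest fall, -4.81. The 3 WT values of Fcgr4 and 2 KO values of Elovl3 did not exceed the 95th percentile of the negative controls, so these sizes are not exact.

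The cell-type lists put these genes in context. Shares of a list without overlap are to be read against 10.9% of all autosomal genes above WT and 11.1% below. Of 31 measured monocyte and recruited macrophage genes, 1 rose (Fcgr4) and none fell. In 17 (54.8%), however, every KO liver lay above every WT liver, and in 1 (3.23%) below. The median was 0.64 against 0.01 over all autosomal genes. The mean signal of the list was 5.59, 5.43 and 5.26 in WT and 7.02, 6.28 and 5.91 in KO livers. Fcer1g, the signalling chain shared by Fc receptors, differed by 3.13 (limma adjusted p = 0.0783, restricted adjusted p = 0.0259). Chil3, a chitinase-like protein of alternatively activated macrophages, lay at 4.01, 3.55 and 3.67 in WT and 9.64, 9.55 and 4.71 in KO livers (4.22, limma adjusted p = 0.1), with mouse 39 near the WT mice. Trem2 and Gpnmb, which mark lipid-associated macrophages, lay at 3.37 to 3.62 and 3.87 to 4.15 in all 6 livers, near the median of the negative controls.

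Resident Kupffer cell genes lay mostly higher in KO livers, with 16 differences positive and 3 negative. Of 19 measured, Spic rose and Cd163 fell, and the median was 1.58. In 14 (73.7%) every KO liver lay above every WT liver, and in 2 (10.5%) below. The mean signal of the list was 7.70, 7.41 and 7.14 in WT and 9.61, 8.60 and 8.34 in KO livers. Marco, a scavenger receptor for bacteria and particles, lay at 7.38, 7.14 and 6.46 in WT and 14.14, 11.05 and 10.37 in KO livers (4.86 ± 1.04), which was not called over all features (limma adjusted p = 0.0625) and was in the restricted fit (0.0208). C1qc, a chain of complement C1q, differed by 2.03 and was called in the same way (0.0853 and 0.0281). Cd163 encodes the scavenger receptor for haptoglobin bound to haemoglobin. It lay at 7.55, 7.14 and 7.31 in WT and 5.21, 5.44 and 5.47 in KO livers, a difference of -1.96 ± 0.27 (limma adjusted p = 0.0123) that was lost only without KO 18 (0.0627). The KO values of Cd163 did not exceed the 95th percentile of the negative controls, so its size is not exact. Clec4f, a lectin restricted to Kupffer cells, lay at 8.96, 8.85 and 8.42 in WT and 9.15, 8.31 and 9.02 in KO livers. Its difference of 0.08 lay within its SE, which was 0.58 with the female arrays in the fit and 0.26 with the male arrays alone. Timd4, the phosphatidylserine receptor of long-lived Kupffer cells, lay at 5.90 to 6.67 in WT and 7.57 to 9.29 in KO livers (1.95, not called, 0.207).

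Neutrophil genes had values above 0 throughout but little support gene by gene. None of 21 was called, all 21 differences were positive with a median of 0.67, and in 12 (57.1%) every KO liver lay above every WT liver. The list's mean signal was 4.74, 4.22 and 4.29 in WT and 6.99, 5.99 and 4.93 in KO livers. S100a8, a calcium-binding protein abundant in neutrophils, lay at 6.57, 5.29 and 5.0 in WT and 16.09, 12.84 and 8.59 in KO livers (6.89 ± 1.44, limma adjusted p = 0.0594, not called). Its partner S100a9 lay at 7.05, 4.98 and 5.44 in WT and 15.62, 12.23 and 8.14 in KO livers (6.17 ± 1.45, 0.0858, not called). The 3 KO mice thus stood in the same order for both genes, 18 above 19 above 39, over a range of more than 7 log2 units. The granule proteins Ngp, at 9.16, 8.31 and 4.16 in KO livers against 3.69 to 3.95 in WT, and Ly6g, the defining surface marker, at 6.15, 5.07 and 4.64 against 4.11 to 4.63, kept that order. In 14 of the 21 genes no value exceeded the 95th percentile of the negative controls. Lcn2, whose highest value 11.24 was shared by 3 of the 6 arrays and by 7 of all 12, had no exact difference.

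Markers of other cell types gave few calls, as did all autosomal genes, of which 1.69% were called. None of 19 T and NK cell genes, 15 B cell and plasma cell genes, 17 MHC class II and dendritic cell genes, 12 erythroid genes, 14 megakaryocyte and platelet genes, 26 stellate cell and fibrosis genes, 18 cholangiocyte genes or 12 adipocyte genes was called, and the medians of these 8 lists ran from -0.03 to 0.21. In 7 of the 14 megakaryocyte and platelet genes (50%), 5 of the 12 erythroid genes (41.7%) and 6 of the 19 T and NK cell genes (31.6%) every KO liver lay above every WT liver, against 57.1% of the neutrophil genes and 10.9% of all autosomal genes, with values mostly under the 95th percentile of the negative controls. All 19 T and NK cell genes and all 12 pancreatic acinar genes stayed under the 95th percentile of the negative controls on all 6 arrays. The fibrosis markers Col1a1 (0.02 ± 0.13) and Acta2 (-0.12 ± 0.50) did not differ beyond their SE. With the male arrays alone the SE was 0.07 and 0.27. All 6 values of both did not exceed the 95th percentile of the negative controls, as in 19 of the 26 genes of their list. These values therefore cannot decide whether such genes differed. Of 23 endothelial genes, 2 fell and none rose, with a median of -0.10. Ehd3, a membrane-remodelling protein of sinusoidal endothelium, lay at 12.01, 11.38 and 11.19 in WT and 9.54, 9.46 and 9.73 in KO livers, a difference of -1.95 ± 0.27 (limma adjusted p = 0.0128). Kdr, the main VEGF receptor, fell by 0.78 ± 0.14 (limma adjusted p = 0.03). Within the list, Pecam1 differed by 0.86 and was called higher in the restricted fit (adjusted p = 0.0435), so its members did not move one way. Ehd3 lost its call without WT 23 or KO 18 (adjusted p up to 0.061) and Kdr without any one mouse (up to 0.0982).

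Inflammatory signalling was measured by 4 lists. Of 34 Toll-like receptor and NF-kB genes, Vcam1 rose and none fell, and the median was 0.23. In 13 (38.2%) every KO liver lay above every WT liver, and in 2 (5.88%) below. Irak3, a brake on Toll-like receptor signalling, lay at 5.02 to 5.34 in WT and at 7.89, 6.95 and 5.99 in KO livers (1.76, limma adjusted p = 0.0805), while Il6 stayed at 3.35 to 3.69 on all 6 arrays. None of 42 interferon response genes was called, with a median of -0.02, and 5 (11.9%) lay below and 3 (7.14%) above WT without overlap. None of 33 chemokine and receptor genes was called either; Cxcl13, which attracts B cells, lay at 10.53, 10.38 and 8.43 in WT and 15.50, 16.11 and 11.91 in KO livers (4.73 ± 1.16, limma adjusted p = 0.0977). Of 28 complement genes 1 rose, Itgb2, and 1 fell: C8g, the gamma chain of complement component C8, at -1.36 ± 0.23 (limma adjusted p = 0.0287), which lost its call in 5 of the 6 fits that left out 1 mouse, all but that without WT 17 (up to 0.1). The complement median was 0.26. In 10 of the 28 (35.7%) every KO liver lay above every WT liver and in 1 (3.57%) below, against 10.9% and 11.1% of all autosomal genes.

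Several acute phase genes, which hepatocytes express during inflammation, spread widely among the WT mice. None of 32 was called, the median was 0.3, and 6 lay at the ceiling on all 6 arrays. In 6 (18.8%) every KO liver lay above every WT liver and in none below, against 10.9% and 11.1% of all autosomal genes. Saa2, serum amyloid A2, lay at 19.93, 11.98 and 16.02 in WT and at the ceiling, 19.93, in all 3 KO livers. Orm2, an alpha-1-acid glycoprotein, lay at 18.12, 13.10 and 15.39 in WT and 19.70, 18.75 and 18.58 in KO livers (3.48, limma adjusted p = 0.256). WT mouse 17 was therefore the highest WT mouse for both, and it equalled or approached the KO mice.

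Among the largest falls were enzymes of lipid and steroid metabolism. Elovl3, an elongase of very long chain fatty acids, lay at 10.13, 12.27 and 13.36 in WT and 6.27, 6.37 and 8.70 in KO livers, a difference of -4.81 ± 0.94 (limma adjusted p = 0.045). Gpd1, cytosolic glycerol-3-phosphate dehydrogenase, lay at 15.23, 14.95 and 15.44 in WT and 12.91, 12.49 and 12.11 in KO livers, a difference of -2.70 ± 0.48 (limma adjusted p = 0.0327). Cyp2c23, an epoxygenase of arachidonic acid, lay at 16.74, 16.88 and 17.16 in WT and 14.69, 14.04 and 14.64 in KO livers, a difference of -2.47 ± 0.29 (limma adjusted p = 0.00847). Cyp2c23 was the most stable of the 3: its difference was -2.59 to -2.26 without any one mouse and was always called, whereas Gpd1 lost its call without any of the 6 mice (adjusted p up to 0.118) and Elovl3 without WT 23, WT 33, KO 18 or KO 19 (up to 0.162). Hsd3b3, a hydroxysteroid dehydrogenase (-2.35 ± 0.45), Agmat, an agmatinase (-2.10 ± 0.30), and Lgals9, galectin 9 (-2.04 ± 0.31), fell with limma adjusted p of 0.0424, 0.0155 and 0.0196. Sgk2, a serine kinase (-2.54 ± 0.41), Ost4, a subunit of the oligosaccharyltransferase (-2.39 ± 0.34), Rab1b, a small GTPase of transport from the endoplasmic reticulum to the Golgi (-1.98 ± 0.31), Ubl7, a ubiquitin-like protein (-2.27 ± 0.34), and Abhd14b, a hydrolase (-2.11 ± 0.32), were the other large falls. All 8 lost the call without WT 23 and all but Ost4 without KO 18. WT 17 was needed for all but Sgk2 and Ost4, WT 33 for Hsd3b3, Sgk2 and Rab1b, and KO 19 for Hsd3b3 (adjusted p up to 0.163). For Elovl3 and for Sgk2, 2 of the 3 KO values did not exceed the 95th percentile of the negative controls, so these sizes are not exact.

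Without any one mouse 110 genes stayed called: 64 snRNA entries, which held 16 distinct sets of values, 39 protein-coding genes, 38 of them lower, and 7 others. Of the protein-coding genes lower in KO, 3 are given here, chosen after their values were seen. Suox, the mitochondrial sulfite oxidase, lay at 13.84, 14.00 and 14.23 in WT and 12.09, 12.02 and 12.45 in KO livers, a difference of -1.84 ± 0.14 (limma adjusted p = 0.00343). Sucnr1, the succinate receptor, lay at 8.05, 8.46 and 8.38 in WT and 6.39, 6.15 and 6.41 in KO livers, a difference of -1.98 ± 0.21 (limma adjusted p = 0.00806). Pxmp4, a peroxisomal membrane protein, lay at 12.50, 12.81 and 12.83 in WT and 11.15, 10.82 and 10.96 in KO livers, a difference of -1.74 ± 0.18 (limma adjusted p = 0.00679). The distance between genotypes exceeded the spread inside either genotype in all 3. The KO values of Sucnr1 did not exceed the 95th percentile of the negative controls, so its size is not exact.

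Fatty acid oxidation genes lay lower across the pathway. Of 28 mitochondrial fatty acid oxidation genes all 28 differences were negative, with a median of -0.95 against 0.01 over all autosomal genes. In 21 (75%) every KO liver lay below every WT liver, against 11.1% of all autosomal genes. Cpt2, which releases acyl-CoA inside the mitochondrion, lay at 12.32, 12.80 and 12.75 in WT and 10.91, 10.34 and 11.29 in KO livers, a difference of -1.78 ± 0.28 (limma adjusted p = 0.0232). Eci1, an isomerase for unsaturated fatty acids, lay at 10.84, 11.35 and 10.90 in WT and 9.20, 8.15 and 8.98 in KO livers, a difference of -2.25 ± 0.44 (limma adjusted p = 0.0448). These were the 2 called over all features; the restricted fit called 14 of 27 lower and none higher, against 9.92% of all genes in it. Among the 14 were the thioesterases Acot1 and Acot2 (-3.83 and -3.90), the carnitine-acylcarnitine carrier Slc25a20 (-1.59), the acyl-CoA dehydrogenase Acad11 (-1.20) and Hadha, the alpha subunit of the trifunctional protein (-1.12), with restricted adjusted p of 0.0388, 0.0213, 0.024, 0.02 and 0.028. Cpt1a, the entry step of the pathway, lay at 16.98, 16.26 and 16.57 in WT and 16.25, 16.31 and 16.23 in KO livers, with overlap (-0.35, limma adjusted p = 0.718). Eci1 lost its call without any one mouse (adjusted p up to 0.169) and Cpt2 without WT 23, WT 33 or KO 18 (up to 0.0935).

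The peroxisomal and ketogenic arms followed. Of 29 peroxisomal genes 1 fell and none rose, with a median of -0.83, and in 15 (51.7%) every KO liver lay below every WT liver. Ech1, another isomerase for unsaturated fatty acids, lay at 10.88, 11.95 and 11.30 in WT and 9.99, 9.83 and 9.45 in KO livers (-1.62 ± 0.29, limma adjusted p = 0.0342), and was called without WT 17 alone among the 6 mice (adjusted p up to 0.108 in the other fits). Decr2, a peroxisomal reductase (-1.82), was called in the restricted fit (0.0273), which called 6 of 25 lower (24%), against 9.92% of all genes in it. Ehhadh, the peroxisomal bifunctional enzyme, lay at 18.37 to 18.97 in WT and at 18.54, 12.38 and 15.07 in KO livers, so that KO 18 lay among the WT mice and KO 19 more than 5 log2 units below them. Of 22 genes of ketogenesis and of the fasting programme driven by the nuclear receptor PPAR alpha, 2 fell and none rose, with a median of -0.99. In 18 (81.8%) every KO liver lay below every WT liver. Acat1, the mitochondrial thiolase of ketone body metabolism, lay at 16.88, 17.45 and 16.88 in WT and 15.86, 15.48 and 15.82 in KO livers, a difference of -1.35 ± 0.16 (limma adjusted p = 0.00847). Creb3l3, a membrane-bound transcription factor of fasting, lay at 10.81, 10.54 and 10.96 in WT and 10.04, 9.86 and 9.98 in KO livers, a difference of -0.81 ± 0.10 (limma adjusted p = 0.00871). Both were called without any one mouse (adjusted p up to 0.0403). Ppara itself lay at 10.92, 11.48 and 11.65 in WT and 10.86, 8.64 and 10.82 in KO livers, where mouse 19 alone stood apart (-1.24 ± 0.50, limma adjusted p = 0.323). Cyp4a14, a standard target of the receptor, was at the ceiling on all 6 arrays.

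**Figure D3:**
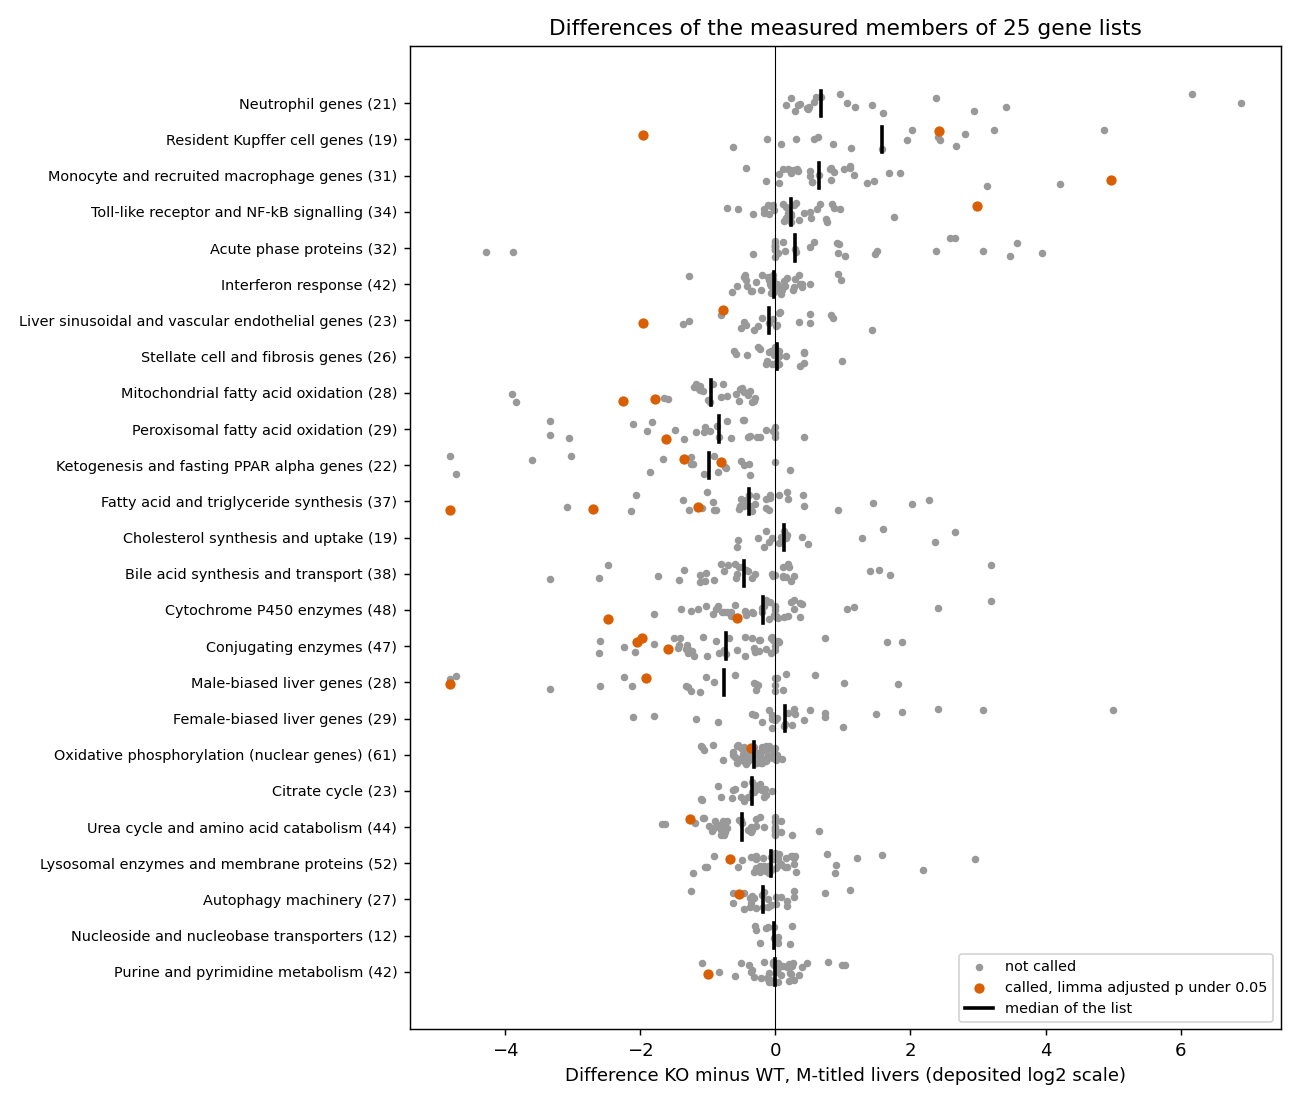
Differences KO minus WT of every measured member of 25 gene lists in the male livers, in deposited log2 units; the number of members stands in parentheses, orange points are called by limma over all features, and black bars are medians. The 28 mitochondrial fatty acid oxidation genes all lie below 0 with a median of -0.95, and the 21 neutrophil genes all lie above 0 with a median of 0.67 although none is called.

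Fatty acid synthesis genes lay mostly lower, and cholesterol genes did not. Of 37 fatty acid and triglyceride synthesis genes 3 fell, Elovl3, Gpd1 and the elongase Elovl6 (-1.15 ± 0.23, limma adjusted p = 0.0467), and none rose, with a median of -0.39. Of the differences 28 were negative. In 13 (35.1%) every KO liver lay below every WT liver and in 2 (5.41%) above, against 11.1% and 10.9% of all autosomal genes. The restricted fit called 8 of 31 lower (25.8%) and none higher, against 9.92% and 5.7% of all genes in it. Of those 8, 6 exceeded the floor on at least 3 arrays of the KO genotype. The lipogenic genes Fasn and Thrsp and the phosphatidate phosphatase Lpin1 were not called, and mouse 19 was the highest of the 6 for all 3: Fasn lay at 6.89, 6.94 and 7.28 in WT and 7.75, 10.73 and 6.94 in KO livers, and Lpin1 at 13.62, 11.96 and 12.55 and at 13.84, 17.26 and 13.83. None of 19 cholesterol genes was called, with a median of 0.13. Fdps, a synthase of the isoprenoid pathway, lay at 6.48, 6.38 and 5.88 in WT and 8.50, 11.74 and 6.47 in KO livers. Cyp51, the lanosterol demethylase, lay at 7.50, 7.44 and 7.02 in WT and 9.30, 12.87 and 6.88 in KO livers. In both, KO 39 stood with the WT mice and KO 19 was the highest. Elovl6 lost its call without any one mouse (adjusted p up to 0.14).

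Detoxifying enzymes lay lower in part. Of 47 conjugating enzymes 3 fell and none rose, with a median of -0.73, and in 20 (42.6%) every KO liver lay below every WT liver. They were Ugt3a1, a sugar transferase (-2.04 ± 0.36), Ces1e, a carboxylesterase (-1.97 ± 0.35), and Ugt2b34, a glucuronosyltransferase (-1.59 ± 0.30), with limma adjusted p of 0.031, 0.0312 and 0.0412. Ugt2b34 lay at 15.64, 16.43 and 16.45 in WT and 14.51, 14.40 and 14.84 in KO livers. Of 48 cytochrome P450 genes and their regulators Cyp2c23 and Cyp4b1 (-0.57 ± 0.11, limma adjusted p = 0.046) fell and none rose. The KO values of Cyp4b1 did not exceed the 95th percentile of the negative controls, so its size is not exact. The median of the list was -0.18, with 12 genes (25%) below without overlap. Paralogues of these families share sequence, so a signal may include a neighbour's. Of 38 bile acid genes none was called, with a median of -0.46 and 13 (34.2%) below without overlap. The restricted fit called 4 of 35 lower (11.4%) and 1 higher (2.86%), near or below its shares over all genes, 9.92% and 5.7%. The 1 higher was Cyp2c70, which makes muricholic acids in mice, at 13.87, 14.08 and 13.32 in WT and 16.84, 18.71 and 15.30 in KO livers (3.19, restricted adjusted p = 0.0232). Slco1a1, an organic anion importer, was among the lower, at 11.52, 13.17 and 13.08 in WT and 8.89, 8.31 and 10.58 in KO livers (-3.33, restricted adjusted p = 0.0234). Cyp7a1, the rate-limiting enzyme of bile acid synthesis, lay at 15.12, 16.15 and 15.11 in WT and 17.32, 18.38 and 15.80 in KO livers, with overlap (1.70, limma adjusted p = 0.698). Ugt3a1 and Cyp4b1 lost their calls without any one mouse (adjusted p up to 0.115 and 0.164), and Ces1e and Ugt2b34 without any but WT 17 (up to 0.117 and 0.16).

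Genes that differ between the sexes in normal liver were examined because growth hormone pulses set them in males. Of 28 male-biased genes 2 fell, Elovl3 and Hsd3b2 (-1.91 ± 0.37, limma adjusted p = 0.0458), and none rose, with a median of -0.76. In 15 (53.6%) every KO liver lay below every WT liver. The restricted fit called 11 of 22 lower (50%), 7 of which exceeded the floor on at least 3 KO arrays. Cyp4a12a, a male-specific fatty acid hydroxylase, lay at 15.62, 16.29 and 17.19 in WT and 8.42, 11.33 and 15.17 in KO livers (-4.73, limma adjusted p = 0.133, restricted adjusted p = 0.0447), and its near-identical neighbour Cyp4a12b at 16.41, 16.39 and 17.35 and at 8.49, 12.04 and 15.15. The KO mice thus spanned more than 6 log2 units for both, with mouse 39 nearest to WT and mouse 18 farthest from it. Gstp1, a glutathione transferase, lay at 18.80, 19.71 and 19.56 in WT and 15.60, 17.83 and 17.92 in KO livers (-2.24, restricted adjusted p = 0.045). None of 29 female-biased genes was called, with a median of 0.14, and 6 (20.7%) lay above without overlap and none below. Of 22 genes of the growth hormone and IGF axis none was called, and Stat5b, which carries the growth hormone signal, lay at 7.69 to 7.75 in WT and 7.54 to 7.78 in KO livers. Igfbp1, which binds insulin-like growth factors, lay at 15.32, 10.80 and 12.03 in WT and 16.64, 18.98 and 15.34 in KO livers (4.27, limma adjusted p = 0.208). Hsd3b2 lost its call without any but KO 39 (adjusted p up to 0.173). For Hsd3b2, as for Elovl3, 2 of the 3 KO values did not exceed the 95th percentile of the negative controls, so these sizes are not exact.

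The circadian clock list held 1 of the largest falls. Nr1d1, the repressor REV-ERB alpha, lay at 11.21, 11.48 and 10.75 in WT and 8.14, 6.29 and 8.31 in KO livers, a difference of -3.57 ± 0.46 (limma adjusted p = 0.00875) that was lost only without WT 23 (0.0509). The value of KO 19 did not exceed the 95th percentile of the negative controls, so the size is not exact. Bhlhe41, another clock repressor, fell by 0.65 ± 0.10 (limma adjusted p = 0.018), with all 6 values under the 95th percentile of the negative controls, and lost its call without WT 23, WT 33 or KO 18 (up to 0.0787). The other 15 of 17 genes were not called, and the median was -0.08. Dbp, an output gene of the clock, lay at 10.39, 10.53 and 9.96 in WT and 9.53, 6.74 and 9.82 in KO livers. Arntl, which encodes the activator BMAL1, lay at 5.82, 5.65 and 5.63 in WT and 5.46, 6.95 and 5.54 in KO livers. Mouse 19 was the lowest KO mouse for Nr1d1 and Dbp and the highest for Arntl, and the labels give no hour of death, so time of day and genotype cannot be told apart for these genes.

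**Figure D4:**
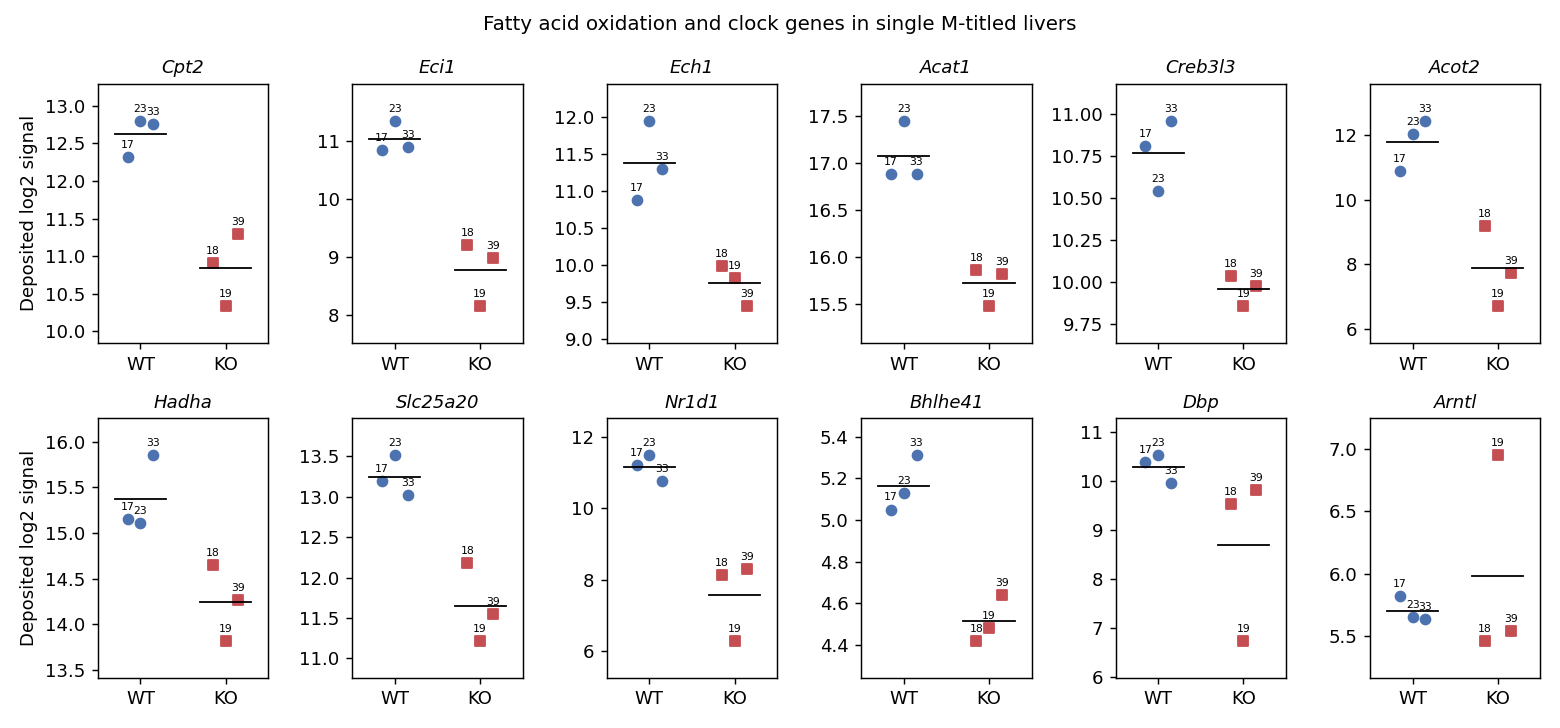
Deposited log2 signal in each of the 6 male livers for 8 fatty acid oxidation and fasting genes and 4 clock genes; numbers are mouse numbers, lines the mean of 3 mice, and each panel has its own range. The KO values lie below the WT values in every panel but that of Arntl, where KO mouse 19, at 6.95, stands above the other 5 mice.

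Mitochondrial and amino acid genes mostly lay slightly lower. Calls were few, as over all autosomal genes, of which 0.97% were called lower. Of 61 nuclear genes of oxidative phosphorylation 57 differences were negative, with a median of -0.32, and 28 (45.9%) lay below WT without overlap. Ndufb5 of complex I was the 1 called (-0.36 ± 0.07, limma adjusted p = 0.0408). Of 23 citrate cycle genes all 23 differences were negative, with a median of -0.35. None was called over all features. The restricted fit called 6 of 23 lower (26.1%), against 9.92% of all genes in it. Of 44 urea cycle and amino acid genes 1 fell, Slc25a13, the mitochondrial aspartate-glutamate carrier (-1.26 ± 0.23, limma adjusted p = 0.0331), with a median of -0.49 and 7 at the ceiling. Of 32 glucose and glycogen genes 1 fell, Ugp2, which makes UDP-glucose (-1.07 ± 0.21, limma adjusted p = 0.049), with a median of -0.18. Slc25a13, Ugp2 and Ndufb5 each lost the call without any one mouse (adjusted p up to 0.12, 0.179 and 0.158). In the same arrays the positive control features differed by -0.23 (exact permutation p = 0.2), and the part of this shift in these small differences was not tested.

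The compartments in which ENT3 itself acts showed few calls, as did all autosomal genes, of which 0.722% were called higher and 0.97% lower. Of 52 lysosomal genes 1 fell: Arsb, the lysosomal arylsulfatase B, lay at 7.70, 7.86 and 7.70 in WT and 7.0, 7.15 and 7.11 in KO livers (-0.67 ± 0.09, limma adjusted p = 0.0086, called without any one mouse). The lysosomal median was -0.06, with 6 genes above (11.5%) and 8 below WT (15.4%) without overlap, near the 10.9% and 11.1% of all autosomal genes. The highest positive difference was that of Ctss, a cathepsin of macrophages (2.95, limma adjusted p = 0.152), and Tpp1, a tripeptidyl peptidase, differed by -1.01 (0.0514, restricted adjusted p = 0.0171). Of 27 autophagy genes Atg7 fell (-0.53 ± 0.10, limma adjusted p = 0.041, lost without any one mouse, up to 0.156). The KO values of Atg7 and 2 of its 3 WT values did not exceed the 95th percentile of the negative controls, so its size is not exact. In 12 of the 27 (44.4%) every KO liver lay below every WT liver, against 11.1% of all autosomal genes. None of 12 nucleoside and nucleobase transporters was called, with a median of -0.02; Slc29a1, the plasma membrane transporter ENT1, lay at 8.46, 8.92 and 8.50 in WT and 8.10, 8.44 and 8.47 in KO livers, and 9 of the 12 stayed under the 95th percentile of the negative controls. Of 42 purine and pyrimidine genes Paics, an enzyme of new purine synthesis, fell from 13.35, 13.26 and 13.38 in WT to 12.41, 12.18 and 12.43 in KO livers (-0.99 ± 0.15, limma adjusted p = 0.0202, lost without WT 17, WT 23, WT 33 or KO 18, up to 0.077). Xdh, xanthine dehydrogenase, differed by 1.03 (limma adjusted p = 0.0525). None of 16 AMPK genes was called, with a median of 0.01.

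Stress and growth lists had medians near 0. None of 27 genes of the unfolded protein and integrated stress response, 19 heat shock chaperones, 26 NRF2 and glutathione genes or 35 cell cycle genes was called, and their medians were 0.08, -0.14, -0.08 and 0.22. Below WT without overlap lay 26.9% of the NRF2 and glutathione genes, 21.1% of the heat shock chaperones and 7.41% of the unfolded protein list. Above WT lay 7.69%, 5.26% and 3.7%, against 11.1% below and 10.9% above over all autosomal genes. Of the cell cycle genes 12 (34.3%) lay above and 1 (2.86%) below without overlap, with 31 of the 35 under the 95th percentile of the negative controls. Of 21 p53 and growth arrest genes Perp, a membrane protein of cell junctions, fell by 1.56 ± 0.27 (limma adjusted p = 0.0298, lost without any mouse but KO 39, up to 0.116). None of 25 iron genes was called. In 1 mouse, however, iron genes stood far apart: Hamp, which encodes the iron hormone hepcidin, lay at the ceiling of 19.93 in 5 mice and at 7.09 in KO 18. Hamp2, its paralogue, lay at 19.62 to 19.67 in those 5 mice and at 8.06 in KO 18, and Tfrc, the transferrin receptor, at 6.66 to 7.28 in those 5 and at 10.41 in KO 18. KO 18 was also the mouse with the highest S100a8 and Marco and the lowest Cyp4a12a.

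Of the 25 hepatocyte secreted and lineage genes 1 fell, Asgr2, a chain of the asialoglycoprotein receptor, from 13.17, 13.05 and 12.47 in WT to 10.87, 10.88 and 10.96 in KO livers (-2.0 ± 0.39, limma adjusted p = 0.0471, lost without any one mouse, up to 0.169). None rose, 8 lay at the ceiling, and the median was 0.00. None of 23 periportal genes was called (median -0.17). Of 20 pericentral genes 1 rose, Slc13a3, a dicarboxylate carrier, by 0.93 ± 0.18 (limma adjusted p = 0.0408, lost without WT 23, WT 33, KO 18 or KO 19, up to 0.157), also with a median of -0.17. The WT values of Slc13a3 did not exceed the 95th percentile of the negative controls, so its size is not exact. None of 19 coagulation factors or 22 cytosolic ribosomal protein genes was called, where 1.69% of all autosomal genes were. In 7 periportal genes (30.4%) and 4 coagulation factors (21.1%) every KO liver lay below every WT liver. Above WT without overlap lay 1 periportal gene (4.35%) and no coagulation factor. Of the ribosomal genes 5 (22.7%) lay above and 1 (4.55%) below, against 10.9% and 11.1% of all autosomal genes.

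The 6 female mice, which share no array with the males, were used to see which male differences recurred. In females 2744 autosomal genes were called, 9.57%. Of the 278 genes called lower in males, 276 had the same sign in females and 237 were called there in the same direction (85.3%), with a median female difference of -1.05. Of the 207 called higher in males, 205 had the same sign and 79 were called (38.2%), with a median female difference of 0.74. The 207 hold 170 snRNA entries with 113 distinct sets of values. A single set, repeated in 45 entries, differed by 0.45 in females (limma adjusted p = 0.3009), so it counts 45 times as not called there. Over all autosomal genes 68.3% had the same sign. In the other direction, 316 of the 2744 genes called in females were called the same way in males (11.5%). Both comparisons share 1 estimate of the spread.

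A test of the difference between the male and female effects called 1 of 65956 features, 0.00152%, with 4396 at an unadjusted p under 0.05. That feature, of the snRNA gene Rnu1b1, was at the ceiling in all 6 females. Several genes called in males had smaller differences in females, none of which passed that test. Nr1d1 was at -3.57 in males and -0.25 in females (limma adjusted p of the difference = 0.287), Pxmp4 at -1.74 and -0.14 (0.178), and Elovl3 at -4.81 and -1.39 (0.685). Elovl3 lay at 4.31, 6.99 and 6.33 in WT females, near the negative controls, so a difference of the male size could not have been seen there. Klf11, a Kruppel-like transcription factor, was the 1 gene called in both with opposite signs, at -0.47 ± 0.07 in males (limma adjusted p = 0.0202) and 0.48 in females (0.00595), and the difference missed the threshold (0.0554); its 6 male values stayed under the 95th percentile of the negative controls, and the male call was lost without WT 23, WT 33, KO 18 or KO 39 (up to 0.0839). Hspb8, a small heat shock protein, lay at 11.88, 12.02 and 11.99 in WT and 10.87, 11.31 and 11.40 in KO males (-0.77, limma adjusted p = 0.0504) and was 1.03 higher in KO females (limma adjusted p of the difference = 0.0608, and under the threshold in the restricted fit). Cyp2c67 went the other way, at -0.59 in males and -3.15 in females (0.0554), and the P450 list as a whole had medians of -0.18 and -1.06, a difference that was not tested.

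**Figure D5:**
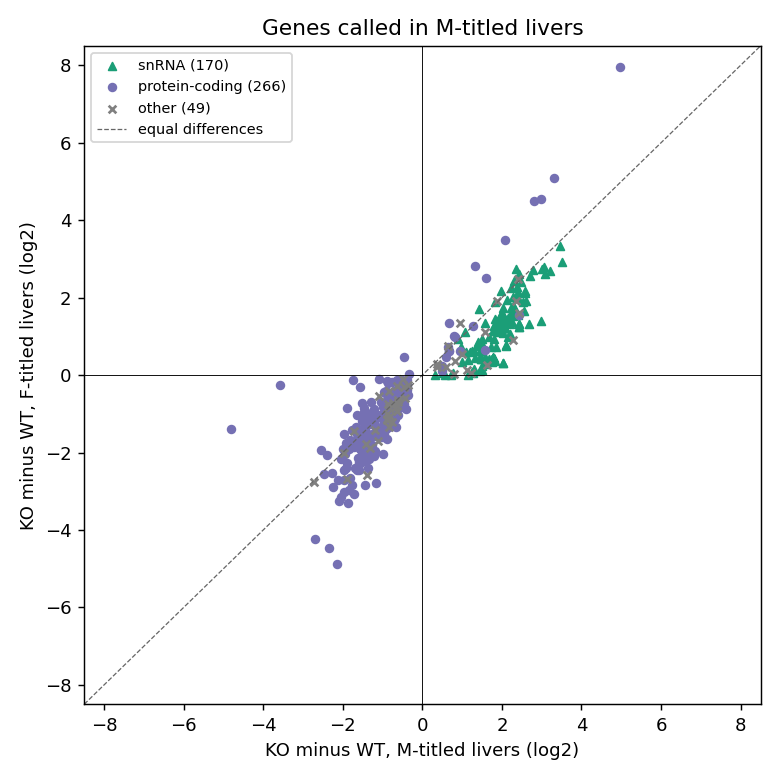
Difference KO minus WT in male livers (horizontal) and female livers (vertical), in deposited log2 units, for the 485 autosomal genes called in males: 170 snRNA (triangles), 266 protein-coding (circles) and 49 others (crosses). The dashed line marks equal differences. Nearly all points share their sign, and Nr1d1 (-3.57 and -0.25) and Elovl3 (-4.81 and -1.39) lie to the left of the main group.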

How the data were processed

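The deposited values are log2 signals per feature of an Affymetrix transcriptome array, which the authors made in Transcriptome Analysis Console (version unnamed), per the submitters' processing notes. Background correction, normalization and genome build: not given in the sources used here. Of 72688 features, 6732 controls were left out of the tests. A symbol was taken from the platform annotation and updated through RefSeq (GRCm38.p6): 31258 transcript features had 1 symbol, 1492 several and 33206 none. Each gene is represented by its feature of highest mean signal over 12 arrays.

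A model of 4 group means (genotype by sex letter) was fitted to all 12 arrays with limma 3.58.1 (lmFit and eBayes) in R 4.3.3, with 8 residual degrees of freedom. The female arrays enter the male contrast through the estimate of the spread only. P-values were adjusted by Benjamini-Hochberg over 65956 features, threshold 0.05. Array measures were compared by exact permutation over 20 arrangements, two-sided. In simulated data with the male contrast over 65956 features, 50 features were changed by each of 4 sizes. Of those changed by 0.5, 1, 2 and 4 log2 units, 20%, 72%, 96% and 100% were recovered, with 16 false calls. The simulated noise was normal and independent between features, with no ceiling, floor, repeated entries or shift of a whole array. The simulation therefore does not cover these traits of the arrays.

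The comparison and the 50 gene lists were chosen with earlier results of these data known. Named by rule were Slc29a3, the 15 largest called differences in each direction, the 6 largest in each direction for the difference between the sexes (filled by the smallest p at 1.5-fold or more), and for each list up to 4 called members or otherwise the 2 of highest signal. Predicted, RIKEN, small RNA, pseudogene, olfactory and vomeronasal entries were left out of the rule. Other genes were named after their values were seen. Alternatives were scaling, filters, the variance model, the poly-A covariate, the 6 male arrays alone and leaving out each mouse. No mouse number recurs between groups.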

Additional observations from a re-analysis of the deposited data

Results flagged for a closer look

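The male and female effects differed by the test of their difference for 1 feature, that of the snRNA gene Rnu1b1 on chromosome 3. It lay at 18.96, 18.70 and 18.90 in WT males and at the ceiling of 19.93 in all 3 KO males, so that the male difference was 1.08, and the difference of the effects was 1.08 ± 0.10 (limma adjusted p = 0.0386). All 6 female arrays were at the ceiling, so a difference in females could not have been seen.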

How the results depend on the processing

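Against 716 called features (382 higher, 334 lower), the 6 male arrays alone gave 37 (19 and 18), quantile normalization 1089 (446 and 643), features above the negative controls 1649 (828 and 821), protein-coding genes alone 395 (41 and 354), and the poly-A covariate 0 (0 and 0; 5125 at an unadjusted p under 0.05), with the SE of called genes larger by a median of 1.91 times. Leaving out 1 mouse gave 161 to 938 called, 98 to 646 higher and 63 to 292 lower. By mouse the counts were 303 without WT 17, 161 without WT 23, 248 without WT 33, 181 without KO 18, 938 without KO 19 and 418 without KO 39. Median centring (932), eBayes with trend and robust (600) and a 1.5-fold minimum (641) stayed within 1.5 times. Features called for the difference between the sexes numbered 1, and 0 with quantile normalization (4204 at an unadjusted p under 0.05) or trend and robust (4202), 4 with centring, 21 above the negative controls, 10 among protein-coding genes, 5 with the poly-A covariate, and 0 to 35 without 1 mouse (0 without KO 39, 35 without KO 19). Of 53 called genes named by rule, 52 stayed called with quantile normalization, 53 with centring, 45 with trend and robust, 4 in the male arrays alone, 0 with the poly-A covariate and 7 to 34 without 1 mouse, all with the same sign. Members of the 50 lists were called 34 times, and 138 times above the negative controls, 82 with quantile normalization and 3 in the male arrays alone. No paired analysis was possible because no mouse number is shared between groups. With 3 mice a group, signals within the negative controls or at the ceiling have no exact size.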
